A study of Homo sapiens with 18 samples.

Results

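The comparison described here set stable knockdown (KD) of S100A16 against stable KD of hnRNPM in A549, an established cell line from a human lung adenocarcinoma. Its members are 6 of the 18 libraries of the series, chosen by their labels: 3 libraries of the untreated S100A16 KD and 3 of the untreated hnRNPM KD. Each library was made from poly(A)-selected mRNA. Per the labels, the cells of both groups are A549 with no added agent, and no time point is given. The remaining libraries (wild-type cells, cells given hydrogen peroxide and a MagoHB KD) were not used in the contrast. The series concerns S100A16 and alternative splicing in oxidatively stressed cancer cells. The direct contrast asks where the transcriptomes of the S100A16 KD and the hnRNPM KD differ. Without a wild-type library a difference has no side: a gene that is higher in the S100A16 KD may be raised there or lowered in the hnRNPM KD. How the KDs were made, whether each is a clone, and whether a vector came with them is not given in these sources. The labels call the 3 libraries of a group biological replicates and do not say how they were separated, so p-values measure the spread between these libraries.

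S100A16 belongs to the S100 family of small proteins whose EF-hand domains bind calcium, which lets many of them bind target proteins. The heterogeneous nuclear ribonucleoprotein M (hnRNPM, gene HNRNPM) is an abundant nuclear RNA-binding protein that binds GU-rich RNA and takes part in the choice of alternative exons. It is known for its role in the splicing of CD44 during epithelial-mesenchymal transition, and for binding transcripts of innate immune genes. A549 cells are known for a constitutively active NRF2 pathway, since the line carries a KEAP1 mutation, and for making liver-type secreted proteins.

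The 6 libraries held between 36612997 and 47257870 counts. A library of each group stood apart from its own group. Between S100A16 KD 2 and 3 the chi-square statistic per degree of freedom over genes was 4.78, but it was 38.9 and 40.3 between S100A16 KD 1 and these libraries. For hnRNPM KD 1 and 2 it was 6.68, against 48.7 and 38.9 between hnRNPM KD 3 and these libraries. Short structured RNAs, a class that poly(A) selection should remove, took up 1329 CPM (read counts scaled to library size) in S100A16 KD 1 and 282 to 303 in the other 5 libraries. The contrast was therefore repeated without S100A16 KD 1 and hnRNPM KD 3, called the reduced fit below. On the first principal component, which took 91.1% of the variance of the 2000 most variable genes, the 2 groups were far apart and each library lay with its group.

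The epithelial label held in every library. Keratin 8 (KRT8), a keratin of simple epithelia, was at 5347, 5306 and 5690 CPM in the S100A16 KD and 5200, 5556 and 5296 CPM in the hnRNPM KD. The summed level of 30 epithelial markers was 8790 to 9340 CPM in the S100A16 KD and 8410 to 9020 in the hnRNPM KD. Lung lineage genes, a list with markers of alveolar type II and of other lung cells, were in part missing. Of 26, 15 stayed under 1 CPM in all 6 libraries, among them the surfactant genes SFTPA1, SFTPB, SFTPC and SFTPD. SFTPA2 and SCGB3A2 were at 0. Other type II markers were present, ABCA3 at 29.8 to 38 CPM and LPCAT1 at 55.9 to 75.2 CPM over the 6 libraries. Of the leukocyte markers, 9 of 12 stayed under 1 CPM, including PTPRC and CD3E, with a summed level of 140 to 151 CPM against 93.1 to 164. The 9 endothelial markers were all under 1 CPM in every library. Of 10 fibroblast markers 6 stayed under 1 CPM, and the sum, mostly PDGFRA and 2 collagens, was 50.5 to 59.2 CPM in the S100A16 KD and 74.5 to 90.1 CPM in the hnRNPM KD.

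The targeted genes followed the labels. S100A16 (GRCh38 chr1:153606886-153613145) was at 9.35, 8.73 and 8.14 CPM in the S100A16 KD and 113, 117 and 143 CPM in the hnRNPM KD, a 14.2-fold difference in the fit (log2 -3.83, SE 0.11, adjusted p = 1.79e-09). HNRNPM (chr19:8444767-8489114) was at 1274, 1218 and 1214 CPM in the S100A16 KD and 408, 438 and 290.2 CPM in the hnRNPM KD, so 3.26-fold higher in the S100A16 KD (log2 1.71, SE 0.13, adjusted p = 4.97e-06). For both genes the 3 libraries of the depleted line lay below all 3 of the other. HNRNPM was lowest in hnRNPM KD 3 among the 6 libraries, so the library that stands apart from its group also held the least of the targeted mRNA. In bulk RNA, fewer cells expressing a gene and less RNA per cell cannot be told apart, here or for any gene below. S100A14, which lies next to S100A16, was at 0.493, 0.508 and 0.527 CPM in the S100A16 KD and 0.31, 0.698 and 0.283 CPM in the hnRNPM KD, too low for a statement. S100A13, another neighbour, was at 56.3, 52.2 and 58 CPM in the S100A16 KD and 64.4, 65.8 and 67.6 CPM in the hnRNPM KD (log2 -0.25, adjusted p = 0.00805). That call was lost without S100A16 KD 2 (adjusted p = 0.0627) and with total counts in place of TMM scaling (log2 -0.13, adjusted p = 0.131). S100A13 overlaps S100A1 on the other strand. MAGOHB, which encodes a core subunit of the exon junction complex and is the target of another line of the series, was at 101, 103 and 97.8 CPM in the S100A16 KD and 79, 70.0 and 56.2 CPM in the hnRNPM KD (log2 0.56, adjusted p = 0.00101).

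**Figure D1:**
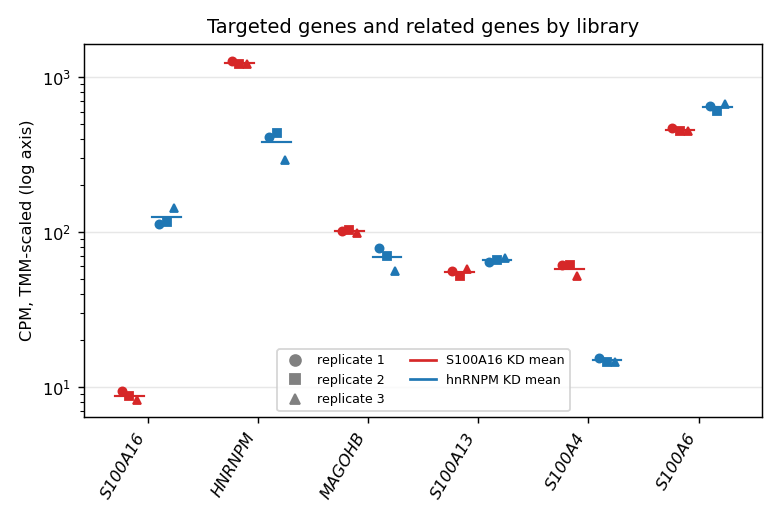
Levels of the 2 targeted genes and of 4 related genes in each of the 6 libraries. The log axis gives TMM-scaled CPM, marker shapes stand for replicates and bars for group means. S100A16 lies at 8.14 to 9.35 CPM in the S100A16 KD against 113 to 143 CPM, and HNRNPM at 290.2 to 438 CPM in the hnRNPM KD against 1214 to 1274 CPM.

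The lines differed across much of the transcriptome. A gene was called when its Benjamini-Hochberg adjusted p in edgeR's quasi-likelihood test, over all 20704 genes tested, was under 0.05. By that rule 10359 genes (50.0%) differed, 5264 (25.4%) higher and 5095 (24.6%) lower in the S100A16 KD, where higher and lower always refer to the S100A16 KD relative to the hnRNPM KD. Beside the counts of a gene list below stands the share of its tested members that was called, to be read against the 50.0% over all genes. Differences of at least 2-fold were fewer: 1972 called genes (9.52%) were at least 2-fold higher and 1073 (5.18%) at least 2-fold lower, 3045 in all (14.7%). The median absolute log2 fold change was 0.40, and the 90th percentile was 1.26. The direction split depends on the scaling. With total counts in place of TMM log2 fold changes moved up by a median of 0.11, and the same test then called 6438 genes higher and 3861 lower (62.5% of calls higher against 50.8%), so small differences below are read against a zero that moves by that much. In the reduced fit, 11683 of 20840 genes (56.1%) were called. Of the 10359 genes called with all libraries, 9731 (93.9%) were called in the same direction and 0 in the opposite direction. Of the 3045 large differences, 2871 were kept. The reduced fit uses libraries of the full fit and leaves out those that stood apart, which narrows the spread within groups. Its counts here and below are thus no independent check.

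**Figure D2:**
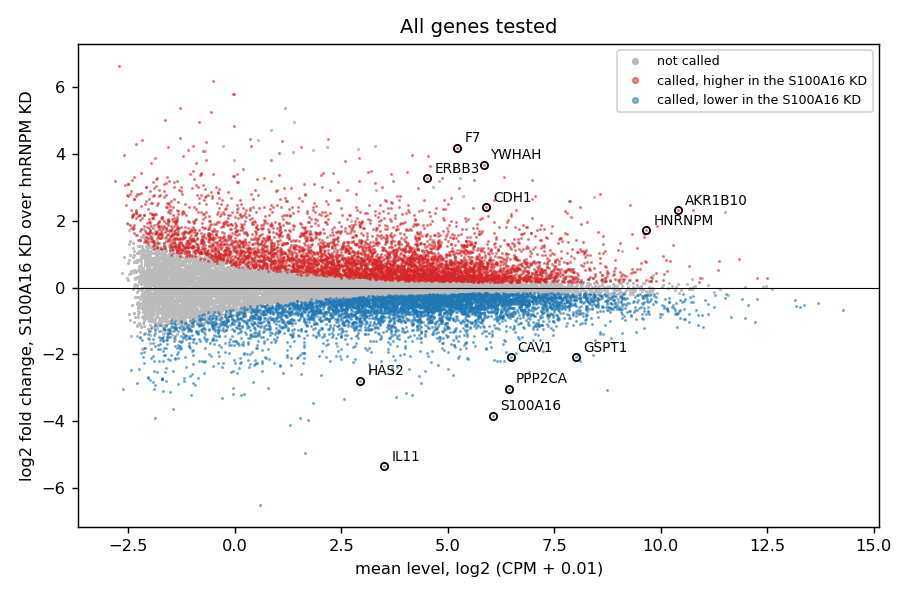
Log2 fold change of the S100A16 KD over the hnRNPM KD for the 20704 genes tested, against the mean level over the 6 libraries. Coloured points are the 5264 genes called higher and the 5095 called lower, grey points were not called, and S100A16 (log2 -3.83) and IL11 (log2 -5.34) lie lowest among the labelled genes.

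Among the 15 named genes with the highest ratios were secreted proteins, receptors and interferon-induced genes. F7 (chr13:113105788-113120681), coagulation factor VII of the extrinsic pathway, was at 73.3, 68.7 and 71.2 CPM in the S100A16 KD and 4.6, 4.1 and 3.05 CPM in the hnRNPM KD (log2 4.18, SE 0.13, adjusted p = 2.71e-09). Its neighbour in the ranking, XAF1, a proapoptotic interferon-induced gene, was at 42.6, 43.2 and 44 CPM in the S100A16 KD and 1.77, 3.37 and 3.4 CPM in the hnRNPM KD (log2 3.94). In both cases the lowest S100A16 KD library was more than 10-fold above the highest hnRNPM KD library. The small GTPase RAB37 was at 13.5, 13.8 and 14.9 CPM in the S100A16 KD and 1.2, 0.988 and 0.675 CPM in the hnRNPM KD, and YWHAH, a phosphoserine-binding adaptor, at 100.5, 107 and 114 CPM in the S100A16 KD and 8.89, 8.43 and 7.71 CPM in the hnRNPM KD. The semaphorin receptor PLXNC1 was at 43.7, 44.3 and 46.3 CPM in the S100A16 KD and 3.74, 2.88 and 4.07 CPM in the hnRNPM KD. The log2 differences were 3.89 for RAB37, 3.68 for YWHAH and 3.64 for PLXNC1, and no library of one line reached the range of the other. FBXO2, which recognises glycoproteins for degradation (log2 3.49), RASSF6 (3.47), the insulin-like growth factor binding protein IGFBP1 (3.39), the carboxypeptidase CPD (3.30), the mitochondrial ribosomal protein MRPS33 (3.28), cytochrome b5 (CYB5A, 3.23) and alpha-1-antitrypsin (SERPINA1, 3.21) were higher to a like extent. ERBB3 (chr12:56079857-56103505), the kinase-impaired neuregulin receptor, was at 43.9, 38.4 and 42.3 CPM in the S100A16 KD and 5.6, 4.48 and 2.83 CPM in the hnRNPM KD (log2 3.27, SE 0.20, adjusted p = 2.50e-06). TNFSF14, the TNF-family ligand LIGHT, was at 60.6, 67.9 and 67.7 CPM in the S100A16 KD and 2.39, 3.14 and 10.9 CPM in the hnRNPM KD. The size of its difference varied with a single library, hnRNPM KD 3, the highest of its group. Its log2 was 3.55 (adjusted p = 0.0113) in all libraries, 4.57 without hnRNPM KD 3 and 4.63 in the reduced fit.

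The other end of the order held genes of several kinds. IL11 (chr19:55364389-55370463), a cytokine of the interleukin-6 family, was at 19.1, 24.6 and 22.9 CPM in the hnRNPM KD and 0.37, 0.699 and 0.549 CPM in the S100A16 KD (log2 -5.34, SE 0.18, adjusted p = 3.88e-09), the largest difference of the 15 lowest named genes. PTX3, a soluble pattern recognition molecule, was at 18.5, 21.7 and 34.4 CPM in the hnRNPM KD and 2.25, 2.94 and 2.55 CPM in the S100A16 KD (log2 -3.27), and FST (follistatin), which binds activins, at 27, 32.3 and 37.3 CPM in the hnRNPM KD and 3.5, 3.58 and 3.29 CPM in the S100A16 KD (log2 -3.22). IL11, PTX3 and FST were 5-fold or more apart in their closest libraries. HAS2, a hyaluronan synthase, was at 11.8, 13.4 and 15.1 CPM in the hnRNPM KD and 2.0, 1.91 and 1.93 CPM in the S100A16 KD. F3, tissue factor, the cell surface partner of factor VII, was at 23.5, 20.8 and 21.2 CPM in the hnRNPM KD and 3.63, 3.83 and 4.37 CPM in the S100A16 KD (log2 -2.47), so the enzyme F7 was higher and its cofactor F3 lower in the same line. The collagen COL21A1 (log2 -3.34), the neuropeptide precursor NTS (-2.61), PBDC1 (-2.54), the matrix-associated ABI3BP (-2.51), the Polycomb protein CBX2 (-2.45) and the decoy receptor for the ligand TRAIL, TNFRSF10D (-2.43), were also lower. PPP2CA (chr5:134194334-134226142), the catalytic alpha subunit of protein phosphatase 2A, was at 156, 165 and 140.0 CPM in the hnRNPM KD and 19, 18.8 and 18.8 CPM in the S100A16 KD (log2 -3.02, SE 0.08, adjusted p = 9.97e-10). MIR3661 lies in the same locus on the other strand (log2 -3.16), and its reads cannot be told apart from those of PPP2CA.

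Interferon-stimulated genes had the highest median difference toward the S100A16 KD among the lists with at least 20 tested genes. Type I interferons act through the JAK kinases on a complex that holds STAT2 and IRF9 and binds the interferon-stimulated response element of antiviral genes. Of 50 genes tested, 46 were higher and 0 lower (92.0% called), 36 of them at least 2-fold higher. The median log2 fold change was 1.34, where the median over all genes tested was 0. At an unadjusted p under 0.05 in the same edgeR fit 0 were lower, and DESeq2 called 1 lower, IFIT2, at 144, 138 and 149 CPM in the S100A16 KD and 151, 150.3 and 234 CPM in the hnRNPM KD (log2 -0.31, adjusted p = 0.158 in edgeR). The groups did not overlap for IFIT2, and its log2 was -0.08 in the reduced fit. In the reduced fit the counts were 49 and 0, with a median of 1.57. Of the signalling components, STAT2 was at 24.1, 22 and 21.4 CPM in the S100A16 KD and 10.5, 12.2 and 14.2 CPM in the hnRNPM KD. IRF9 was at 48.7, 48.7 and 47.1 CPM in the S100A16 KD and 17.1, 18.1 and 23 CPM in the hnRNPM KD. The log2 differences were 0.87 and 1.31. Among sensors of viral RNA, DDX58 (RIG-I) was at 143, 148 and 152 CPM in the S100A16 KD and 36.6, 37.4 and 53.4 CPM in the hnRNPM KD (log2 1.80). IFIH1 (MDA5) was at 119, 122 and 120.1 CPM in the S100A16 KD and 41.9, 44.7 and 59.9 CPM in the hnRNPM KD (log2 1.30). Effectors varied: IFIT1 (log2 1.08) and IFIT3 (1.07) differed by less than these sensors, while OAS2, IFI6 and TRIM22 differed by more. OAS2, which makes the second messenger that activates RNase L, was at 14.1, 13.4 and 13.6 CPM in the S100A16 KD and 1.28, 1.57 and 1.65 CPM in the hnRNPM KD (log2 3.19, adjusted p = 1.11e-08). IFI6, an antiviral membrane protein, was at 19.7, 17.6 and 21 CPM in the S100A16 KD and 2.43, 2.06 and 2.68 CPM in the hnRNPM KD (log2 3.01, adjusted p = 1.14e-08). TRIM22, a restriction factor of the tripartite motif family, was at 15.3, 17.3 and 15.5 CPM in the S100A16 KD and 1.28, 1.16 and 1.83 CPM in the hnRNPM KD (log2 3.47, adjusted p = 1.73e-08). For STAT2, IRF9, DDX58, IFIH1, OAS2, IFI6 and TRIM22 all S100A16 KD libraries lay above all hnRNPM KD libraries, and for DDX58 and IFIH1 hnRNPM KD 3 was the highest of the hnRNPM KD. IFIT3 was closer between the lines in hnRNPM KD 3: it was at 349, 358 and 384 CPM in the S100A16 KD and 127, 139 and 254 CPM in the hnRNPM KD (log2 1.07, adjusted p = 0.0309), and 4 of its 15 alternative fits did not call it.

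The promoters of this list were read from RefSeq (GRCh38.p14), in which 38 of the 50 genes matched by symbol. The window was 250 bases before to 50 bases after each listed start. The interferon-stimulated response element was searched on both strands as GAAA, any 2 bases, then GAAA (on the other strand TTTC, any 2 bases, then TTTC), with overlapping matches counted. It was found at 27 of the 38 genes (71.1%), while 4.38% of all 27305 genes with a promoter in the table hold it. The gamma-activated site, TTCNNNGAA, which reads the same on both strands and can overlap the former, was found at 12 of 38 (31.6%) against 9.38%. The list names genes known to respond to interferon, so these shares follow from the choice of list and say nothing about these libraries. Within the list the median log2 fold change was 1.30 with and 1.19 without the interferon-stimulated response element, and 1.53 with and 1.16 without the gamma-activated site. Called at least 2-fold higher were 74.1% with and 72.7% without the former, and 83.3% with and 69.2% without the latter. Outside the interferon and MHC class I lists, 436 of 11264 tested genes with a promoter held the interferon-stimulated response element. Their median log2 fold change was 0.08 against -0.01 for the rest, and 11.9% against 8.3% were called at least 2-fold higher. A match describes the letters only and shows no binding. The 250 bases before the start of 4 genes that carry more than 1 match are printed 5′ to 3′ with the matches in capitals, since these letters are shared by genes that were higher together. IFI6 (chr1:27672193-27672442, minus strand) has matches beginning at -156, -115 and -93 from the start. IFI44L (chr1:78620198-78620447, plus strand) has them at -164 and -73, BST2 (chr19:17405631-17405880, minus strand) at -130 and -124, overlapping each other, and IFIT1 (chr10:89392373-89392622, plus strand) at -116 and -103. XAF1 and CMPK2, with 2 and 3 listed starts, have no match in the 250 bases before the start that was read.
IFI6: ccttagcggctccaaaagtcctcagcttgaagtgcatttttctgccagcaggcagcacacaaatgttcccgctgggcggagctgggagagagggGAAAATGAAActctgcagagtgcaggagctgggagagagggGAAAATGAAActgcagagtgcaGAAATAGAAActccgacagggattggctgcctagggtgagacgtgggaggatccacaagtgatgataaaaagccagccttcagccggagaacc
IFI44L: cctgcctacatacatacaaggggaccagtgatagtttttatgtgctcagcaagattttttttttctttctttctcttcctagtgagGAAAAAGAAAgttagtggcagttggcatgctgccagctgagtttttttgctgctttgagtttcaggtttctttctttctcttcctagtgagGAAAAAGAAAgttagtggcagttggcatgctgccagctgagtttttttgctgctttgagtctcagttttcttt
BST2: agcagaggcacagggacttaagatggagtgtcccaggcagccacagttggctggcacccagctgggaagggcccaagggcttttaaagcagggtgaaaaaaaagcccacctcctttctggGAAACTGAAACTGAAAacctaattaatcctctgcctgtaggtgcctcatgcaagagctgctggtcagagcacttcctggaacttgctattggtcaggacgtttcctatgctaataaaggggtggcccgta
IFIT1: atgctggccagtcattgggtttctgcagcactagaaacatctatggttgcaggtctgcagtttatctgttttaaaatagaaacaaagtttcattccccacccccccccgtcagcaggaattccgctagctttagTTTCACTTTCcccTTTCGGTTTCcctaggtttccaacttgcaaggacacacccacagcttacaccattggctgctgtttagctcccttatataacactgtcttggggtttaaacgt
The 2 neighbouring matches of IFI6 nearest the start begin 22 bases apart, and those of IFIT1 13 bases apart. IFI44L, of unclear molecular function, was at 18, 16.7 and 18 CPM in the S100A16 KD and 1.42, 2.04 and 2.61 CPM in the hnRNPM KD (log2 3.12). BST2 (tetherin), which holds budding virus at the cell surface, was at 5.33, 5.21 and 4.79 CPM in the S100A16 KD and 0.531, 1.1 and 0.958 CPM in the hnRNPM KD (log2 2.58). IFIT1, which binds viral RNA caps, had the highest level of the 4 in both lines and the smallest difference, 211, 203 and 216 CPM in the S100A16 KD and 92.3, 89 and 116 CPM in the hnRNPM KD (log2 1.08). RSAD2 (viperin), with a single match before the start, was at 27.9, 28.8 and 29.1 CPM in the S100A16 KD and 3.32, 4.36 and 7.62 CPM in the hnRNPM KD (log2 2.48). CMPK2, without a match before the start that was read, was at 8.04, 7.67 and 10.5 CPM in the S100A16 KD and 0.509, 0.174 and 0.479 CPM in the hnRNPM KD (log2 4.43).

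Genes of antigen presentation by MHC class I and of the immunoproteasome differed in the same direction but by less. Of 21 tested, 17 were higher and 2 lower (median log2 0.65, 90.5% called), and 2 were at least 2-fold higher. These were NLRC5, the transactivator of MHC class I genes, at 6.68, 6.93 and 6.94 CPM in the S100A16 KD and 1.39, 1.22 and 1.68 CPM in the hnRNPM KD (log2 2.25), and HLA-F at 17.1, 18.8 and 19.2 CPM in the S100A16 KD and 5.35, 4.62 and 6.23 CPM in the hnRNPM KD (log2 1.76). B2M, the light chain of MHC class I molecules, was at 189, 203 and 204 CPM in the S100A16 KD and 118, 113 and 140.1 CPM in the hnRNPM KD (log2 0.69). HLA genes are near-identical to each other, so reads may have been split among them. The proteasome activator PSME1 was at 314, 334 and 319.5 CPM in the S100A16 KD and 162, 176 and 191 CPM in the hnRNPM KD (log2 0.87). The immunoproteasome subunit PSMB8 was at 26.6, 25.3 and 27.5 CPM in the S100A16 KD and 14.5, 15.2 and 14.5 CPM in the hnRNPM KD (log2 0.84). Against the rest, TAP2, the peptide transporter subunit, was lower at 14, 13.2 and 15.7 CPM in the S100A16 KD and 29.2, 34.4 and 31 CPM in the hnRNPM KD (log2 -1.14, adjusted p = 1.52e-06), while its partner TAP1 was at 19.4, 21.4 and 23.4 CPM in the S100A16 KD and 13.4, 14 and 18.4 CPM in the hnRNPM KD (log2 0.48). PDIA3, a chaperone of the loading complex, was slightly lower (log2 -0.26). At 11 of 17 genes with a promoter (64.7%) the interferon-stimulated response element was found. The median log2 fold change of the list was 0.54 with and 0.59 without it.

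NRF2 target genes, which detoxify electrophiles and make glutathione and NADPH, were higher across the list. Of 35 tested, 28 were higher and 1 lower (82.9% called), 15 of them at least 2-fold higher, and the median log2 fold change was 0.84. The aldo-keto reductase AKR1B10 was at 2284, 2222 and 2239 CPM in the S100A16 KD and 533, 399 and 426 CPM in the hnRNPM KD (log2 2.31, SE 0.10, adjusted p = 1.80e-08). AKR1C1 was at 470.0, 452 and 471 CPM in the S100A16 KD and 104, 66.8 and 92.7 CPM in the hnRNPM KD (log2 2.40). AKR1C genes are close paralogs whose reads may have been split. SLC7A11, the cystine importer of glutathione synthesis, was at 415, 396 and 385 CPM in the S100A16 KD and 60.3, 51.9 and 84.2 CPM in the hnRNPM KD (log2 2.60). These 3 genes differed by more than 3-fold in their closest libraries. SRXN1, which repairs oxidised peroxiredoxins, was at 320.1, 345 and 342 CPM in the S100A16 KD and 117, 104 and 108 CPM in the hnRNPM KD (log2 1.61, adjusted p = 1.31e-08). The epoxide hydrolase EPHX1 and the glutathione transferase MGST1 differed by log2 1.76 and 1.63. TXNRD1, thioredoxin reductase, was at 1782, 1778 and 1741 CPM in the S100A16 KD and 756, 661 and 768 CPM in the hnRNPM KD (log2 1.28). NQO1, a quinone reductase, was at 953, 991 and 934 CPM in the S100A16 KD and 511, 406 and 353 CPM in the hnRNPM KD (log2 1.18). HMOX1, heme oxygenase, went the other way at 14, 13.1 and 15.2 CPM in the S100A16 KD and 30.4, 28.2 and 28.1 CPM in the hnRNPM KD (log2 -1.04, adjusted p = 1.33e-06), and it was the 1 member called lower. In the reduced fit, 28 were higher and 3 lower. The antioxidant response element, searched as TGACNNNGC, or GCNNNGTCA on the other strand, was found in the promoter window of 10 of 26 genes (38.5%). It was found at 16.1% of all genes in the table and at 19.2% of the 11319 tested genes with a promoter. The list names NRF2 targets, so its share bears on the choice of list. The median log2 fold change of the list was 0.92 with and 0.79 without a match, and 40.0% with and 43.8% without were called at least 2-fold higher. Over all tested genes with a promoter the median was -0.01 with and -0.01 without a match, and these shares were 8.5% and 8.7%. SRXN1, NQO1 and AKR1C1 have no match in the 250 bases before the start. TXNRD1 is shown because it is among the most abundant members with a match, which begins at -99 (chr12:104215529-104215778, plus strand, the 250 bases before the start).
TXNRD1: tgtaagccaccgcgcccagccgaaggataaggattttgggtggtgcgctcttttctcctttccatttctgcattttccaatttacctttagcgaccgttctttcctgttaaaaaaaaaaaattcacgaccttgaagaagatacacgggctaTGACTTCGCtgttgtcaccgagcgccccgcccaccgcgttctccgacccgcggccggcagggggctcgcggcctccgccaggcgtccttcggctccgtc
The list of enzymes that remove peroxide and superoxide was mixed, with 9 higher and 5 lower of 21 tested (median log2 0.16, 66.7% called). GLRX, glutaredoxin, was at 88.5, 88.8 and 85.4 CPM in the S100A16 KD and 21.6, 19.6 and 22.2 CPM in the hnRNPM KD (log2 2.05, adjusted p = 4.65e-09). GPX8 (log2 1.42), GPX3 (1.66) and catalase (CAT, 0.80) were also higher, while SESN1 (-1.39) and PRDX4 (-0.45) were lower.

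**Figure D3:**
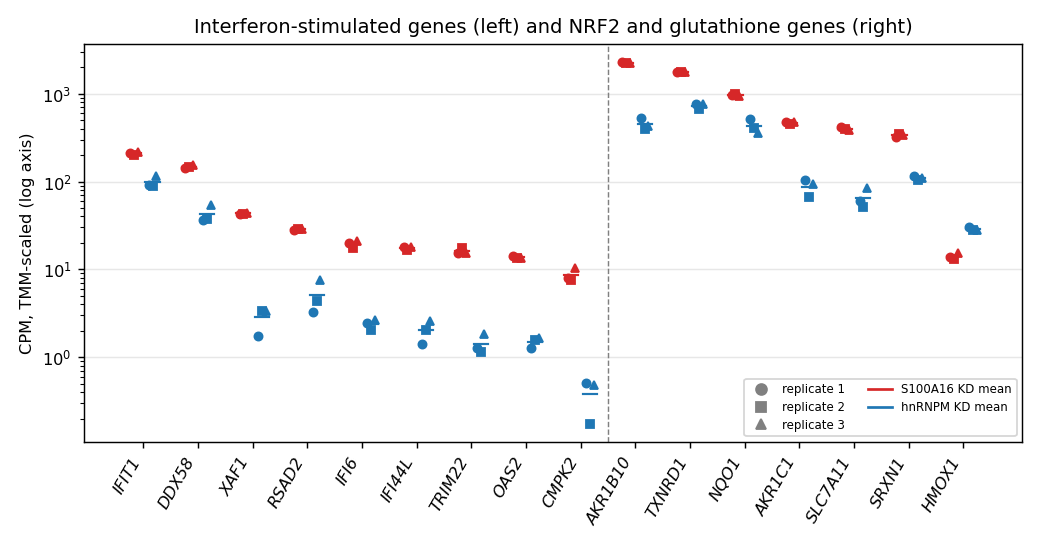
Levels of 9 interferon-stimulated genes (left of the line) and 7 NRF2 targets (right) in each library, as TMM-scaled CPM on a log axis, with bars for group means. The S100A16 KD lies above the hnRNPM KD for every gene drawn except HMOX1, at 13.1 to 15.2 CPM against 28.1 to 30.4 CPM.

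The list of liver-type genes chosen for A549 cells had 25 higher and 4 lower of 33 tested (median log2 0.82, 87.9% called, 16 at least 2-fold higher). Of its 39 genes, 9 stayed under 1 CPM in every library. The fibrinogen chains differed together. FGB was at 1557, 1430 and 1532 CPM in the S100A16 KD and 508, 456 and 296 CPM in the hnRNPM KD (log2 1.84). FGA was at 495, 453 and 519 CPM in the S100A16 KD and 129, 116 and 135 CPM in the hnRNPM KD (log2 1.95, adjusted p = 1.14e-08). FGG was at 73.8, 62.7 and 75.5 CPM in the S100A16 KD and 39.4, 30.9 and 26.7 CPM in the hnRNPM KD (log2 1.13). All libraries of the S100A16 KD lay above those of the hnRNPM KD for each chain. ALDH3A1, an aldehyde dehydrogenase, was at 647, 712 and 630.1 CPM in the S100A16 KD and 103, 71.5 and 108 CPM in the hnRNPM KD (log2 2.81, SE 0.15, adjusted p = 6.07e-07). CYP4F11, a fatty acid hydroxylase, was at 14.3, 14.5 and 13.6 CPM in the S100A16 KD and 3.61, 2.5 and 2.92 CPM in the hnRNPM KD (log2 2.22). TM4SF4, a tetraspan membrane protein, was lower (log2 -1.49). Prothrombin (F2) was at 1.92, 2.1 and 1.54 CPM in the S100A16 KD and 0.0885, 0.116 and 0.392 CPM in the hnRNPM KD, with log2 3.16 in all libraries and 4.13 in the reduced fit.

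Counts of inflammatory genes moved when the libraries that stand apart were left out. In the NF-kB list 10 of 32 tested were higher and 6 lower (median log2 0.30, 50.0% called). In the reduced fit the counts were 22 higher and 6 lower, with a median of 0.74. CXCL8, the neutrophil chemokine interleukin 8, was at 4.79, 5.15 and 5.18 CPM in the S100A16 KD and 1.68, 2.67 and 9.25 CPM in the hnRNPM KD, so the groups overlapped through hnRNPM KD 3 and it was not called (adjusted p = 0.888). IL6 was at 2.84, 3.88 and 3.05 CPM in the S100A16 KD and 2.01, 1.83 and 5.55 CPM in the hnRNPM KD (adjusted p = 0.946) with the same library highest. Complement C3 was at 330.2, 369 and 379 CPM in the S100A16 KD and 43.4, 47.9 and 131 CPM in the hnRNPM KD, with log2 2.28 (adjusted p = 0.0253) in all libraries. Its call was lost when S100A16 KD 2, S100A16 KD 3, hnRNPM KD 1 or hnRNPM KD 2 was left out alone (adjusted p from 0.0608 to 0.0686). In the reduced fit its log2 was 3.03, hnRNPM KD 3 being the highest of its group. Genes whose call did not depend on that library included the chemokine CXCL2 at 14.3, 13.3 and 11.9 CPM in the S100A16 KD and 4.62, 5.35 and 6.79 CPM in the hnRNPM KD (log2 1.23, adjusted p = 2.04e-05). Another was LIF, a cytokine of the interleukin-6 family, at 41.8, 41.4 and 41.5 CPM in the S100A16 KD and 26.4, 24.7 and 24 CPM in the hnRNPM KD (log2 0.73). The serum amyloid genes SAA2 and SAA1 were called higher at low levels; SAA2 was at 1.48, 1.99 and 1.73 CPM in the S100A16 KD and 0.0442, 0.233 and 0.239 CPM in the hnRNPM KD, and SAA1 was at 0 in hnRNPM KD 2, so no fold is given. As given above, IL11 and PTX3 of this list were lower.

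Of 27 TNF ligands and receptors tested, 9 were higher and 6 lower (median log2 0.28, 55.6% called). TNFRSF1A, the main TNF receptor, was at 58.3, 56.8 and 62.2 CPM in the S100A16 KD and 37, 31.7 and 35.3 CPM in the hnRNPM KD (log2 0.77). LTBR, a receptor of the ligand TNFSF14, was at 161, 162 and 174 CPM in the S100A16 KD and 112, 111 and 114 CPM in the hnRNPM KD (log2 0.56). The ligand TNFSF10 (TRAIL) was at 3.65, 3.77 and 4.52 CPM in the S100A16 KD and 0.796, 0.93 and 0.958 CPM in the hnRNPM KD (log2 2.15, adjusted p = 1.91e-06). NGFR, a neurotrophin receptor, was higher at low level (log2 2.78). Together with TNFRSF10D, TNFRSF12A, the receptor of TWEAK, was lower at 14.1, 15.4 and 17 CPM in the S100A16 KD and 30.0, 32.6 and 32.2 CPM in the hnRNPM KD (log2 -1.03, adjusted p = 2.05e-06).

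Growth factor genes split by gene rather than by family. In the EGF receptor list 5 of 24 tested were higher and 11 lower (median log2 -0.19, 66.7% called). EGFR itself was at 203, 206 and 219 CPM in the S100A16 KD and 196, 192 and 216 CPM in the hnRNPM KD (adjusted p = 0.493). ERBB2, which pairs with ERBB3, was at 50.0, 52 and 51.3 CPM in the S100A16 KD and 53.5, 50.4 and 44.4 CPM in the hnRNPM KD (adjusted p = 0.617), so ERBB3 was the receptor of the 3 that passed the test. The ligands AREG and EREG were lower: AREG was at 72.4, 75.1 and 79.3 CPM in the S100A16 KD and 212, 221 and 172 CPM in the hnRNPM KD (log2 -1.42, adjusted p = 2.18e-07). EREG was at 23, 27.1 and 26.9 CPM in the S100A16 KD and 52.1, 52.9 and 51.7 CPM in the hnRNPM KD (log2 -1.02, adjusted p = 9.25e-07). HBEGF was at 3.85, 6.44 and 4.46 CPM in the S100A16 KD and 16.8, 19.7 and 29.5 CPM in the hnRNPM KD (log2 -2.16), with the highest value in hnRNPM KD 3. The feedback phosphatase DUSP4 (log2 -1.16) and SPRY2 (-1.03), a feedback inhibitor of receptor tyrosine kinases, were lower, whereas SPRY1 was higher (1.24). The TGF-beta list had 12 higher and 11 lower of 37 tested (62.2% called), and its median log2 of -0.09 changed sign to 0.03 with total counts. The receptor TGFBR2 was at 206, 204 and 219.7 CPM in the S100A16 KD and 112, 102 and 128 CPM in the hnRNPM KD (log2 0.89, adjusted p = 4.08e-06). The BMP-responsive regulators ID1 and ID2 were higher (log2 1.64 and 1.46), as was the activin subunit INHBE (1.74). SMURF2, a ubiquitin ligase that restrains TGF-beta receptors, was at 39.8, 42.1 and 39.7 CPM in the S100A16 KD and 115, 120.5 and 132 CPM in the hnRNPM KD (log2 -1.59, adjusted p = 1.74e-08). In the IGF axis 10 of 21 tested were higher and 3 lower (median log2 0.39, 61.9% called). The receptors INSR (log2 0.73) and IGF1R (0.39) were higher, and of the mRNA-binding IGF2BP proteins IGF2BP3 was higher (0.41) while IGF2BP2 (-0.96) and IGF2BP1 (-0.33) were lower.

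More epithelial genes were called higher than lower in the S100A16 KD, and more mesenchymal genes lower than higher. Of 26 epithelial genes tested, 13 were higher and 5 lower (median log2 0.36, 69.2% called). CDH1 (E-cadherin) was at 104, 93.7 and 104 CPM in the S100A16 KD and 22.9, 19.4 and 14.4 CPM in the hnRNPM KD (log2 2.41, SE 0.15, adjusted p = 1.15e-06), with every S100A16 KD library more than 4-fold above every hnRNPM KD library. ITGB4, the integrin of hemidesmosomes, was at 18.1, 16.9 and 17.2 CPM in the S100A16 KD and 6.39, 5.49 and 5.83 CPM in the hnRNPM KD (log2 1.56, adjusted p = 1.56e-07). MUC1 (log2 1.37) and CD24 (0.74) were higher. Against this direction KRT7, another keratin of simple epithelia, was at 226, 244 and 243 CPM in the S100A16 KD and 616, 721 and 698 CPM in the hnRNPM KD (log2 -1.51, adjusted p = 3.42e-08). The tight junction protein OCLN was lower (log2 -0.52). Among 39 mesenchymal and collagen genes tested, 5 were higher and 22 lower (median log2 -0.45, 69.2% called), and 9 and 20 in the reduced fit. COL5A2 was at 459.9, 476 and 481 CPM in the S100A16 KD and 858, 894 and 968 CPM in the hnRNPM KD (log2 -0.94, adjusted p = 4.48e-07). COL1A1 was at 14.9, 12.8 and 14.2 CPM in the S100A16 KD and 32.1, 34 and 30.1 CPM in the hnRNPM KD (log2 -1.20). VIM (vimentin) was at 376, 400.3 and 392 CPM in the S100A16 KD and 664, 694 and 929.8 CPM in the hnRNPM KD (log2 -0.97). The groups did not overlap for any of these 3 genes. MMP14, a membrane-bound matrix protease, was lower (log2 -1.21), while COL12A1 (0.54) and the actin-binding CALD1 (0.57) were higher. The fibroblast marker list had 0 higher and 3 lower of 8 tested (COL1A1, COL3A1 and LUM, median log2 -0.24, 37.5% called). That share is below the 50.0% over all genes, and 1 of these genes is counted in both lists. Both DESeq2 and an unadjusted p under 0.05 in edgeR gave 0 higher and 4 lower in that list. FAP, DCN and POSTN stayed under 1 CPM in every library.

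**Figure D4:**
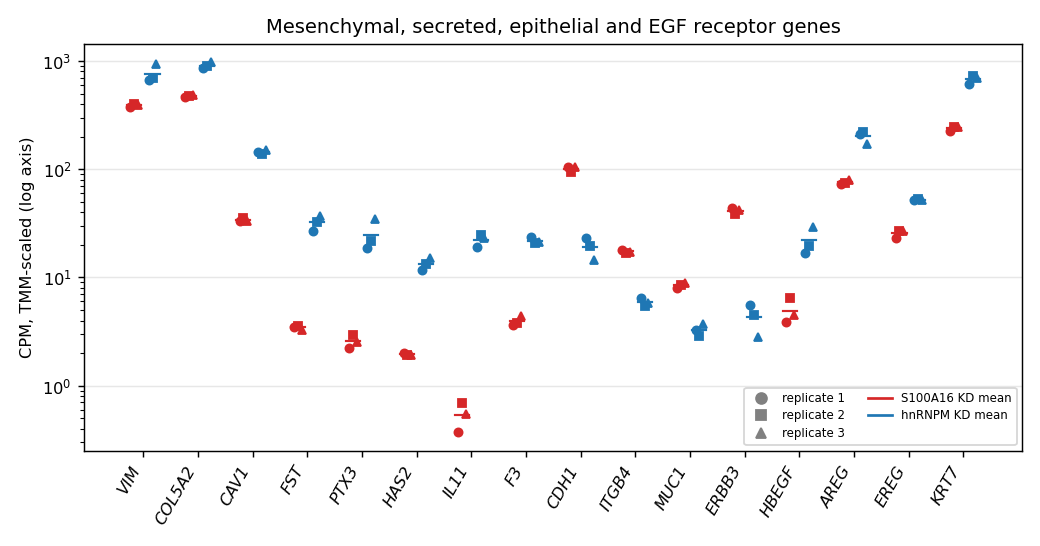
Levels of mesenchymal, secreted, epithelial and EGF family genes in each library, as TMM-scaled CPM on a log axis, with bars for group means. IL11 lies at 0.370 to 0.699 CPM in the S100A16 KD against 19.1 to 24.6 CPM, and CDH1 at 93.7 to 104 CPM against 14.4 to 22.9 CPM.

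The coat of caveolae, plasma membrane pits that buffer stretch, was lower: 6 of 10 tested against 1 higher (median log2 -0.65, 70.0% called). CAV1, its main scaffold, was at 33.5, 35 and 33.3 CPM in the S100A16 KD and 143, 137 and 151 CPM in the hnRNPM KD (log2 -2.08, SE 0.07, adjusted p = 2.71e-09). Its partner CAV2 was at 51, 53.4 and 54.7 CPM in the S100A16 KD and 68.3, 60.8 and 63.4 CPM in the hnRNPM KD (log2 -0.27), a far smaller difference. EHD2 (log2 -0.75), PTRF, also called cavin-1 (-0.63), and MURC, cavin-4 (-1.27), were lower, and PACSIN2 was higher (0.76). Targets of the coactivator YAP counted 8 higher and 13 lower of 28 tested (median log2 -0.19, 75% called). The matricellular genes CYR61 and CTGF, often used as readouts of YAP, were at 25.5, 23.6 and 23.8 CPM in the S100A16 KD and 63.6, 71.9 and 55.8 CPM in the hnRNPM KD (log2 -1.39, adjusted p = 3.06e-07) and 24.5, 28.2 and 27.6 CPM in the S100A16 KD and 56.4, 59.1 and 57.4 CPM in the hnRNPM KD (log2 -1.11, adjusted p = 3.15e-07). ANKRD1 was at 368, 413 and 389.9 CPM in the S100A16 KD and 522, 630.4 and 689.7 CPM in the hnRNPM KD (log2 -0.65). AJUBA, at 77.7, 85.6 and 82 CPM in the S100A16 KD and 19.2, 22.4 and 24.2 CPM in the hnRNPM KD, was higher (log2 1.90, adjusted p = 2.45e-08), as was the Hippo kinase LATS2 (log2 0.67).

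**Figure D5:**
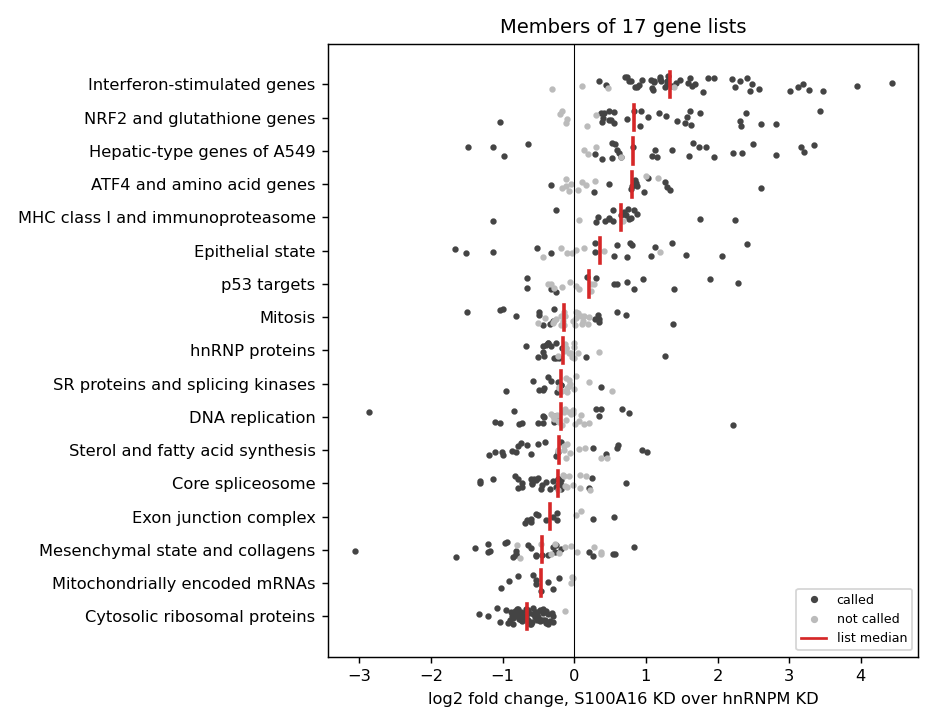
Log2 fold changes of the tested members of 17 gene lists, with dark points for called genes, grey points for genes not called and a bar at each list's median. The median is 1.34 for interferon-stimulated genes and -0.65 for cytosolic ribosomal proteins.

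Among RNA processing factors, the class to which hnRNPM belongs, the hnRNP, SR protein and core spliceosome lists each had more members called lower than higher in the S100A16 KD. With total counts the medians of these lists were -0.04, -0.07 and -0.11. The shares called in the hnRNP and SR protein lists, 53.1% and 48.0%, were near the 50.0% over all genes. Among 32 hnRNP proteins other than HNRNPM, 2 were higher and 15 lower (median log2 -0.16, 53.1% called), and 2 and 25 in the reduced fit. HNRNPUL1 was at 208, 204 and 206 CPM in the S100A16 KD and 326, 357 and 304 CPM in the hnRNPM KD (log2 -0.68, adjusted p = 8.67e-06). HNRNPU, HNRNPA0 and HNRNPA3 differed by log2 -0.39, -0.44 and -0.44. HNRNPUL1 overlaps TGFB1 on the other strand. PTBP3, a paralog of the splicing repressor PTBP1, was at 50.5, 53.5 and 49 CPM in the S100A16 KD and 19.8, 20.2 and 24.1 CPM in the hnRNPM KD (log2 1.26, adjusted p = 4.22e-07), the 1 hnRNP gene at least 2-fold apart. HNRNPH2 was called higher by log2 0.16, but not in 8 of 15 alternative fits. Small lower calls were lost too, such as HNRNPF (log2 -0.17) and HNRNPH1 (-0.22) without S100A16 KD 1 (adjusted p = 0.0936 and 0.0893). HNRNPA1 was at 2684, 2631 and 2628 CPM in the S100A16 KD and 2898, 3011 and 2269 CPM in the hnRNPM KD (adjusted p = 0.739). By length-scaled level, the mean RPKM of HNRNPM was 229 ± 3.45 (SD, n = 3) in the S100A16 KD and 64.6 ± 12.0 (SD, n = 3) in the hnRNPM KD, against 541 ± 1.55 and 513 ± 64.5 for HNRNPA1.

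SR proteins and their kinases, which promote exon inclusion in many transcripts, had 1 higher and 11 lower of 25 tested (median log2 -0.18, 48.0% called), none by 2-fold. SRRM1 was at 127, 135 and 135 CPM in the S100A16 KD and 254, 277 and 237 CPM in the hnRNPM KD (log2 -0.95, adjusted p = 7.36e-07). SRSF5 (log2 -0.44), SRRM2 (-0.42) and the kinase DYRK1A (-0.49) were lower, while the kinase CLK4 was higher (0.37). SRSF1 (-0.22) and TRA2B (-0.24) lost their lower calls without S100A16 KD 1. In the core spliceosome 27 of 41 were lower and 3 higher (median log2 -0.23, 73.2% called). The U5 helicase SNRNP200 was at 228, 218 and 209.7 CPM in the S100A16 KD and 537, 539 and 556 CPM in the hnRNPM KD (log2 -1.32, SE 0.06, adjusted p = 2.47e-08). SNRNP40 was at 21.5, 18.9 and 20.7 CPM in the S100A16 KD and 54.4, 55.5 and 41.7 CPM in the hnRNPM KD (log2 -1.31). The Sm protein SNRPB was at 159, 151 and 149.6 CPM in the S100A16 KD and 373, 367 and 268 CPM in the hnRNPM KD (log2 -1.13). These were the 3 members lower by 2-fold or more, with SF3B3 at log2 -0.73. SNRPD3, another Sm protein, was higher (log2 0.72), and so was PRPF8 (0.25). The tissue-specific splicing regulators were divided, 5 higher and 4 lower of 16 tested (median log2 0.09, 56.2% called), and 3 and 4 in the reduced fit. MBNL2 was at 39.2, 40.1 and 37.4 CPM in the S100A16 KD and 24.1, 22.9 and 25.7 CPM in the hnRNPM KD (log2 0.68), whereas its paralog MBNL1 was at 79.3, 77.2 and 83.1 CPM in the S100A16 KD and 135, 134 and 145 CPM in the hnRNPM KD (log2 -0.79), so the 2 muscleblind genes differed in opposite directions. RBM24 (0.61) and RBM47 (0.45) were higher, CELF1 (-0.52) was lower, and KHDRBS3 (0.81) was called at under 2 CPM and lost in 4 of 15 alternative fits.

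The exon junction complex, which marks spliced junctions, had 10 of 14 lower and 2 higher (median log2 -0.34, 85.7% called). PNN was at 1076, 1091 and 1021 CPM in the S100A16 KD and 1763, 1831 and 1552 CPM in the hnRNPM KD (log2 -0.69, adjusted p = 1.34e-05). RNPS1 was at 138, 142 and 138 CPM in the S100A16 KD and 228, 216 and 190.4 CPM in the hnRNPM KD (log2 -0.60). PYM1, which takes the complex apart, was at 35.7, 35.9 and 35.8 CPM in the S100A16 KD and 53.1, 56 and 55.5 CPM in the hnRNPM KD (log2 -0.61). The groups did not overlap for any of these genes. The core protein RBM8A was at 165, 155 and 155 CPM in the S100A16 KD and 242, 229 and 198 CPM in the hnRNPM KD (log2 -0.50). MAGOH, the paralog of MAGOHB, was at 34.8, 33.5 and 33.3 CPM in the S100A16 KD and 52.9, 52.1 and 42 CPM in the hnRNPM KD (log2 -0.53), so MAGOH was lower where MAGOHB was higher. The second member called higher was SAP18 (log2 0.26). The complex feeds nonsense-mediated decay, whose factors had 9 lower and 2 higher of 17 (median log2 -0.26, 64.7% called). GSPT1, the release factor eRF3a, was at 100.5, 98.2 and 98.4 CPM in the S100A16 KD and 426, 445 and 392 CPM in the hnRNPM KD (log2 -2.09, SE 0.07, adjusted p = 2.92e-09). The endonuclease SMG6 was at 30.7, 27.9 and 26.9 CPM in the S100A16 KD and 60.2, 67.6 and 63.8 CPM in the hnRNPM KD (log2 -1.17). UPF3A was at 191, 198 and 191 CPM in the S100A16 KD and 404, 436 and 363 CPM in the hnRNPM KD (log2 -1.05). The decapping enzyme DCP2 was lower (log2 -0.96). XRN1, the cytoplasmic exonuclease, was higher at 41.5, 41 and 40.5 CPM in the S100A16 KD and 12.7, 12.5 and 16.9 CPM in the hnRNPM KD (log2 1.54, adjusted p = 4.52e-07). SMG8 (0.25) was lost in 5 of 15 alternative fits. UPF1, the central helicase, was at 51.8, 53 and 53.3 CPM in the S100A16 KD and 55.1, 53.5 and 54.4 CPM in the hnRNPM KD (adjusted p = 0.576). Host genes of snoRNAs, whose spliced transcripts are substrates of this decay, had 3 higher and 7 lower of 21 tested (47.6% called), and their median log2 of -0.11 became 0 with total counts. GAS5 was at 42.2, 45.1 and 40.0 CPM in the S100A16 KD and 69.1, 65.8 and 63.6 CPM in the hnRNPM KD (log2 -0.64, adjusted p = 1.53e-05). SNHG12, SNHG5 and SNHG15 were lower (log2 -0.94, -0.45 and -0.65), and SNHG8 was higher (0.56). SNHG20 (0.45) lost its call in 2 alternative fits.

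In a list of S100 family genes that also held S100PBP, of 12 tested besides S100A16, 4 were higher and 3 lower (median log2 0.14, 58.3% called). S100A4, which promotes cell motility, was at 61.4, 60.9 and 51.7 CPM in the S100A16 KD and 15.4, 14.5 and 14.5 CPM in the hnRNPM KD (log2 1.97, SE 0.09, adjusted p = 1.58e-08). S100A6 was at 468, 453 and 450.3 CPM in the S100A16 KD and 654, 601 and 673 CPM in the hnRNPM KD (log2 -0.49) and S100A10, the partner of annexin A2, at 257, 267 and 281 CPM in the S100A16 KD and 332, 326 and 396 CPM in the hnRNPM KD (log2 -0.39). Both groups stayed apart for each of these genes. S100P (log2 1.58) and S100A1 (1.34) were higher at a few CPM or less, and S100PBP, an S100P-binding protein, by 0.45. By length-scaled level S100A16 was at 70.3 ± 10.9 RPKM (SD, n = 3) in the hnRNPM KD and 5.34 ± 0.305 RPKM (SD, n = 3) in the S100A16 KD, where S100A6 was at 489 ± 4.11 RPKM (SD, n = 3).

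Cytosolic ribosomal proteins formed the most uniform list toward the hnRNPM KD. Of 66 tested, 65 were lower in the S100A16 KD and 0 higher (98.5% called). For 65 the libraries did not overlap, where 59.0% of all genes tested had groups apart in either direction. DESeq2 called 65 lower and 0 higher, the same counts as an unadjusted p under 0.05 in edgeR. The median log2 was -0.65, and -0.54 with total counts. RPS2 was at 387, 402 and 388 CPM in the S100A16 KD and 994, 1058 and 907 CPM in the hnRNPM KD (log2 -1.33, SE 0.07, adjusted p = 5.72e-08). RPL12 was at 449.9, 477 and 491 CPM in the S100A16 KD and 1117, 1115 and 1045 CPM in the hnRNPM KD (log2 -1.21). RPL24 was at 213, 219 and 215 CPM in the S100A16 KD and 478, 445 and 442 CPM in the hnRNPM KD (log2 -1.08). RPL5, which with RPL11 binds MDM2, was at 1049, 1050 and 1075 CPM in the S100A16 KD and 2158, 2288 and 2056 CPM in the hnRNPM KD (log2 -1.03). These 4 genes were the members at least 2-fold lower. Ribosomal protein genes have many processed pseudogenes, so the authors' counting could split their reads.

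Mitochondrial transcripts were lower too. They made up 7.56% to 7.87% of counts in the S100A16 KD and 9.60% to 10.6% in the hnRNPM KD. Of the 13 mitochondrially encoded mRNAs, 10 were lower and 0 higher (median log2 -0.46, 76.9% called). The counts were also 10 and 0 with DESeq2 and at an unadjusted p under 0.05 in edgeR. MT-ND1, of complex I, was at 3052, 3051 and 3245 CPM in the S100A16 KD and 6462, 6526 and 5959 CPM in the hnRNPM KD (log2 -1.02, adjusted p = 2.53e-07). MT-ND2 was at 2718, 2763 and 2991 CPM in the S100A16 KD and 5729, 5819 and 4351 CPM in the hnRNPM KD (log2 -0.91). MT-CO1 and MT-ATP8 differed by log2 -0.54 and -0.79. MT-ND6, encoded on the other strand, was at 1767, 1742 and 1527 CPM in the S100A16 KD and 1642, 1878 and 1632 CPM in the hnRNPM KD (adjusted p = 0.763). Of 55 nuclear genes of oxidative phosphorylation, 4 were higher and 23 lower (median log2 -0.16, 49.1% called), and 4 and 38 in the reduced fit. UQCRC1, of complex III, was at 62.9, 63.4 and 61.8 CPM in the S100A16 KD and 121, 118 and 98.7 CPM in the hnRNPM KD (log2 -0.84). UQCRB, also of complex III, was at 349, 346 and 369.7 CPM in the S100A16 KD and 554, 541 and 495 CPM in the hnRNPM KD (log2 -0.58), with COX8A (-1.43) also lower. Of the succinate dehydrogenase subunits, SDHB and SDHD differed in the other direction, but SDHC was slightly lower (log2 -0.23, adjusted p = 0.0277). The SDHC call was lost without S100A16 KD 1 (adjusted p = 0.0629). SDHB was at 22.6, 21.5 and 22.6 CPM in the S100A16 KD and 7.28, 7.91 and 6.27 CPM in the hnRNPM KD (log2 1.64, adjusted p = 1.33e-07). SDHD was at 14.9, 15.3 and 16.2 CPM in the S100A16 KD and 4.91, 4.01 and 4.55 CPM in the hnRNPM KD (log2 1.78, adjusted p = 1.27e-07). SDHD overlaps TIMM8B on the other strand.

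Sterol and fatty acid synthesis counted 6 higher and 15 lower of 32 (median log2 -0.21, 65.6% called). FASN, fatty acid synthase, was at 77.9, 73.4 and 83.5 CPM in the S100A16 KD and 200.2, 187 and 150.0 CPM in the hnRNPM KD (log2 -1.19). HMGCS1 (-0.82) and LSS (-1.0) were lower, while the desaturase FADS1 was at 591, 507 and 515 CPM in the S100A16 KD and 282, 274 and 240.5 CPM in the hnRNPM KD (log2 1.02) and the sterol carrier STARD4 was higher (0.95). Glycolysis and hypoxia genes had no common direction: 14 of 34 were higher and 9 lower (67.6% called), with a median log2 of -0.01, or 0.11 with total counts. Carbonic anhydrase CA12 was at 229.9, 228 and 248 CPM in the S100A16 KD and 72.2, 66.5 and 70.9 CPM in the hnRNPM KD (log2 1.75, adjusted p = 7.25e-09). LDHA, lactate dehydrogenase A, was at 1033, 1002 and 1005 CPM in the S100A16 KD and 649, 599 and 535 CPM in the hnRNPM KD (log2 0.77). ALDOA (0.46) and HK1 (0.68) were higher, but HK2 was at 4.49, 4.77 and 4.54 CPM in the S100A16 KD and 12.9, 13 and 10.6 CPM in the hnRNPM KD (log2 -1.40). PFKFB3, which makes the activator of phosphofructokinase, was at 64.5, 64.5 and 63 CPM in the S100A16 KD and 267, 250.2 and 199 CPM in the hnRNPM KD (log2 -1.90, adjusted p = 6.23e-08). The 2 hexokinases thus differed in opposite directions.

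Genes of ATF4 and amino acid supply were higher, 14 of 26 against 1 lower (median log2 0.80, 57.7% called), and 19 against 4 in the reduced fit. PSAT1 and PSPH, of serine synthesis, were at 50.1, 53.1 and 52.7 CPM in the S100A16 KD and 26.9, 25.5 and 23.9 CPM in the hnRNPM KD (log2 1.03, adjusted p = 4.41e-07) and 43, 40.8 and 43.5 CPM in the S100A16 KD and 23.4, 24.2 and 23.8 CPM in the hnRNPM KD (log2 0.83). SLC3A2, the heavy chain that pairs with SLC7A11, was at 492, 514 and 476 CPM in the S100A16 KD and 269, 255 and 287 CPM in the hnRNPM KD (log2 0.87, adjusted p = 9.25e-07) and PCK2 was higher (log2 1.26). SHMT2, which makes mitochondrial one-carbon units, was the 1 member lower (log2 -0.32). The unfolded protein response of the endoplasmic reticulum was divided evenly, 6 higher and 6 lower of 21 (57.1% called), with a median log2 of -0.05, or 0.06 with total counts. XBP1, its transcription factor, was at 169, 151 and 169.9 CPM in the S100A16 KD and 70.7, 71.2 and 72.7 CPM in the hnRNPM KD (log2 1.19, adjusted p = 8.04e-08). The co-chaperone DNAJB9 was at 54, 53.7 and 53.4 CPM in the S100A16 KD and 13.2, 11.4 and 16 CPM in the hnRNPM KD (log2 1.98, adjusted p = 7.12e-08). CANX (0.63) and SEL1L (0.66) were higher, but the chaperones HYOU1 (-0.51) and PDIA6 (-0.47) were lower. Heat shock chaperones had 12 higher and 3 lower of 23 (median log2 0.20, 65.2% called), and 12 and 6 in the reduced fit. HSP90AA1 was at 4763, 4844 and 4531 CPM in the S100A16 KD and 2698, 2829 and 2243 CPM in the hnRNPM KD (log2 0.86, adjusted p = 7.41e-06). DNAJB4 was at 151, 147 and 138 CPM in the S100A16 KD and 54.4, 48.9 and 68.6 CPM in the hnRNPM KD (log2 1.34). HSF2 (1.42) and AHSA1 (0.55) were higher. CHORDC1 (-0.43) and HSPA8 (-0.26) were lower. The small chaperone CRYAB was at 2.44, 2.92 and 3.1 CPM in the S100A16 KD and 0.597, 0.291 and 1.37 CPM in the hnRNPM KD, and its log2 of 1.86 became 2.69 in the reduced fit.

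Of the cell cycle lists, neither had a called share above the 50.0% over all genes. DNA replication genes had 6 higher and 13 lower of 38 (median log2 -0.19, 50.0% called), and 6 and 26 in the reduced fit. For mitosis, with fewer members called than that share, the counts were 7 and 10 of 40 (median log2 -0.15, 42.5% called), and 6 and 24 in the reduced fit. KIAA0101, the PCNA-associated factor now named PCLAF, was at 4.69, 5.0 and 5.29 CPM in the S100A16 KD and 39.6, 41.2 and 28.5 CPM in the hnRNPM KD (log2 -2.86, SE 0.14, adjusted p = 4.75e-08). The E-type cyclins went apart: CCNE1 was at 27.5, 25.8 and 27.2 CPM in the S100A16 KD and 6.48, 5.81 and 4.96 CPM in the hnRNPM KD (log2 2.22, adjusted p = 2.37e-08). CCNE2 was at 10.4, 10.9 and 10.1 CPM in the S100A16 KD and 23.1, 21.1 and 20.2 CPM in the hnRNPM KD (log2 -1.03, adjusted p = 1.69e-06). GINS1 (log2 -1.11) and FEN1 (-0.84) were lower and RFC4 (0.77) higher; FEN1 overlaps FADS2. Of mitotic genes, the kinase AURKA was at 14.5, 13.7 and 14.1 CPM in the S100A16 KD and 48.4, 40.6 and 30.9 CPM in the hnRNPM KD (log2 -1.50, adjusted p = 1.01e-05), with hnRNPM KD 3 nearest to the S100A16 KD. CENPE (-1.0), CDC25B (-0.82) and the proliferation marker MKI67 (-0.49) were lower, while ANLN, needed for cytokinesis, was at 301, 294 and 289.8 CPM in the S100A16 KD and 110.0, 113 and 117 CPM in the hnRNPM KD (log2 1.38, adjusted p = 1.58e-08) and the motor KIF11 was higher (0.72). Targets of p53 had 10 higher and 4 lower of 24 (median log2 0.21, 58.3% called). ZMAT3 was at 27.6, 30.9 and 28.6 CPM in the S100A16 KD and 6.64, 6.83 and 9.99 CPM in the hnRNPM KD (log2 1.89, adjusted p = 1.23e-06). The inhibitor of cyclin-dependent kinases CDKN1A was at 49.4, 57.1 and 56.9 CPM in the S100A16 KD and 15.1, 16.6 and 30.4 CPM in the hnRNPM KD (log2 1.39), again with hnRNPM KD 3 nearest. TP53INP1 (2.28), RRM2B (0.84) and XPC (0.56) were higher and CCNG1 (-0.66) lower, and AEN (-0.32) lost its call in 2 alternative fits. Replication-dependent histones, whose mRNAs lack a poly(A) tail and are thus poorly captured, had 1 higher and 6 lower of 12 tested (median log2 -0.45, 58.3% called). The linker histone HIST1H1C was at 15.6, 14.9 and 15.2 CPM in the S100A16 KD and 32.2, 32.8 and 37.6 CPM in the hnRNPM KD (log2 -1.17, adjusted p = 4.84e-07).

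Of protein phosphatase 2A genes 11 were lower against 4 higher of 20 tested (median log2 -0.24, 75% called). Beyond the catalytic subunit PPP2CA, its paralog PPP2CB was at 68.2, 68.7 and 66.5 CPM in the S100A16 KD and 83.7, 83.7 and 79 CPM in the hnRNPM KD (log2 -0.28), a far smaller difference. Of regulatory subunits PPP2R2A was at 56, 52.3 and 53.6 CPM in the S100A16 KD and 98.7, 96.8 and 90.1 CPM in the hnRNPM KD (log2 -0.82, adjusted p = 1.27e-06) and PPP2R2D was lower (-0.39), as was IGBP1 (-0.41), which binds the free catalytic subunit. The activator PTPA was at 26.9, 25.5 and 29 CPM in the S100A16 KD and 13.7, 12.9 and 10.8 CPM in the hnRNPM KD (log2 1.12, adjusted p = 2.68e-06). The methylesterase PPME1 was higher (0.30). Imprinted genes had 4 higher and 7 lower of 18 tested (median log2 -0.25, 61.1% called). PEG10 was at 178, 173 and 182 CPM in the S100A16 KD and 313, 288 and 244 CPM in the hnRNPM KD (log2 -0.66, adjusted p = 4.87e-05). MEST (-1.07) and PLAGL1 (-0.78) were lower, as was NNAT. BLCAP (0.73), which contains NNAT on the other strand, and SNURF (0.39) were higher.

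The lineage and marker lists were small after the filter on low counts. Of 13 lung lineage genes tested, 2 were higher and 2 lower (2 and 4 in the reduced fit, 30.8% called with all libraries), with a median log2 of -0.01, or 0.11 with total counts. CEBPA (log2 1.71) and LAMP3 (1.86) were higher at a few CPM or less, and ETV5 (-0.72) and SOX9 (-0.38) were lower. Of 5 leukocyte markers tested 2 were higher and 0 lower (median log2 0.27, 40.0% called), the integrin ITGAM at 7.33, 7.12 and 7.42 CPM in the S100A16 KD and 2.41, 2.5 and 3.05 CPM in the hnRNPM KD (log2 1.45) and NKG7 at under 1 CPM. Of 2 endothelial markers tested 1 was higher and 0 lower (median log2 1.39, 50.0% called), VWF at under 1 CPM. For both lists DESeq2 and an unadjusted p under 0.05 in edgeR gave the same counts. Whether other cells play a part in the results above was not tested. CD68, which is also made outside macrophages, was at 131 to 141 CPM in the S100A16 KD and 88.7 to 159 CPM in the hnRNPM KD, and PDGFRA at 25.3 to 29.5 CPM and 27.6 to 38.3 CPM. PTPRC, CD3E, CDH5 and KDR stayed under 1 CPM in all 6 libraries.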

How the data were processed

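Poly(A) mRNA of A549 cells was sequenced by the authors. They deposited whole-number counts per gene (44016 features) and RPKM values, and the RPKM values equalled the counts scaled to exon length and library total for 100% of 531539 values above 0 (tolerance 0.001). The submitters' processing notes name build GRCh38 (hg38) and list HISAT2 2.2.1 and StringTie 2.1.4, besides DESeq2 1.32.0, SAMtools 1.15.1 and FastQC 0.11.9, with no roles. No source used here names the counting program or its strand setting, so overlapping genes and close paralogs are uncertain. Only 20.1% to 21.3% of the counts from 1 to 19 were odd, so halved counts were also tried. Of the per-sample columns, 0 were left unused. A GENCODE 29 symbol matched 29186 features, of which 28705 overlapped that gene on GRCh38.

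Libraries were grouped by their labels. The deposited counts of the 6 libraries were tested with edgeR 4.0.16 (R 4.3.3, limma 3.58.1): filterByExpr over the 2 groups, TMM scaling, the robust quasi-likelihood F test, and Benjamini-Hochberg adjustment over all 20704 genes tested. Adjusted p-values in the text are from this test. Levels are TMM-scaled CPM. Fold changes are differences of fitted log2 levels, S100A16 KD minus hnRNPM KD. In data simulated for this contrast (20344 genes) 88.1% of 67 genes changed 1.5-fold, 98.5% of 67 changed 2-fold and 100% of 66 changed 4-fold were recovered, with 12 false calls. The changed genes were few and all at 5 CPM or more, and no simulated library was made to stand apart. In the measured contrast 50.0% of genes were called, so these figures do not give the recovery or the false calls there.

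The members and the 40 gene lists were chosen with earlier results of these data known, so lists are described by counts and medians with no test. Named by rule were the targeted genes, S100A14, S100A13 and MAGOHB; the 15 highest and 15 lowest ratios among called genes averaging 5 CPM or more, with groups that did not overlap and the same call without S100A16 KD 1 and hnRNPM KD 3; and from each list up to 4 called members of smallest adjusted p in the main direction and up to 2 in the other. Outside that rule, after their values were seen, KRT8, STAT2, IRF9, DDX58, IFIH1, IFIT1, IFIT2, IFIT3, IFI44L, BST2, RSAD2, CMPK2, B2M, TAP1, AKR1C1, SLC7A11, TXNRD1, NQO1, FGB, FGG, F2, CXCL8, IL6, C3, EGFR, ERBB2, HBEGF, VIM, CAV2, HNRNPA1, HNRNPF, HNRNPH1, SRSF1, TRA2B, MAGOH, UPF1, MT-ND6, SDHC, CRYAB, CDKN1A and PPP2CB were named to describe their lists. Some genes that the rule names are not reported here. Alternatives were DESeq2 1.42.0, limma voom, scaling by total counts or RLE, no filter beyond 1 count, all 12 knockdown libraries, a replicate block, halved counts, S100A16 KD 1 and hnRNPM KD 3 both left out, and each library left out in turn.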

Additional observations from a re-analysis of the deposited data

How the results depend on the processing

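The number of genes called stayed within 1.5 times the reported 10359 under all 15 alternatives. It was 10017 with DESeq2, 10429 with limma voom, 10299 with total counts, 10368 with RLE scaling, 10738 of 39013 without a filter beyond 1 count, 10212 with all 12 knockdown libraries and 10107 with halved counts. Leaving out each library in turn gave 8629 (without S100A16 KD 2) to 12279 (without hnRNPM KD 3). The replicate numbers did not pair the libraries: the correlations of deviations between same-numbered libraries were 0.068, 0.02 and 0.016, and S100A16 KD 2 went best with hnRNPM KD 3 (0.029). A fit with the replicate number as a block called 10224 genes. S100A16 and HNRNPM were called in every alternative. Of 15503 recomputed values of list and named genes, 14466 kept their side of the threshold, 592 lost a call and 433 gained one in the same direction. Another 12 turned sign and were called in the alternative, all of genes not called as reported. Values called in neither fit are among the 14466 whether or not their sign turned. Without hnRNPM KD 3, the log2 fold changes were 0.29 for CXCL5, 0.19 for TRAF1, -0.12 for MCM7, -0.14 for PLK1, -0.15 for PRC1 and 0.53 for LAMB3. With S100A16 KD 1 left out too they were 0.30 for CXCL5, 0.23 for TRAF1, -0.14 for NDUFA5, -0.12 for MCM7, -0.17 for PRC1 and 0.55 for LAMB3. Over the fits without a single library these genes ranged from -0.39 to 0.29 (CXCL5), -0.44 to 0.19 (TRAF1), -0.12 to 0.07 (MCM7), -0.14 to 0.12 (PLK1), -0.15 to 0.09 (PRC1) and -0.3 to 0.53 (LAMB3). The cause was not tested. Depth limits low genes: with 36612997 to 47257870 counts per library, genes under about 1 CPM rest on few counts, and their fold changes are uncertain.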
